A study of Mus musculus with 168 samples.

Results

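The 84 potassium channel genes described here are those whose symbol starts with Kcn and for which the array carries at least 1 probe set annotated to that gene alone, among 18193 genes with such a probe set. They were chosen by symbol and not by any measured value, although earlier results of these data were known when the list was chosen. A total of 167 probe sets named a Kcn gene alone, and 46 of the genes had several. For those, the probe set with the highest mean over all arrays stood for the gene. By role there were 22 voltage-gated alpha subunits, 9 silent modifier subunits, 15 accessory subunits, 8 calcium- or sodium-activated channels, 15 inward rectifiers and 12 two-pore channels. The 3 other symbols, Kcnmb4os1, Kcnmb4os2 and Kcnq1ot1, name transcripts called after the channel gene that they lie beside or opposite.

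Adult male C57BL/6 mice, 8 to 9 weeks old per the methods, breathed 8% O2 for up to 3 h and then room air for up to 24 h. RNA from 7 brain regions (cerebellum, pons with medulla, midbrain, thalamus, striatum, hippocampus and cortex) was hybridised to Affymetrix Mouse 430 2.0 arrays, 3 for each region and time or 24 a region. The groups were the 0hr controls (C), 1 and 3 h of hypoxia (H1 and H3), and 1, 3, 6, 12 and 24 h of room air after the 3 h of hypoxia (R1, R3, R6, R12 and R24). All mice were of 1 strain and sex, and the labels name no genetic change. Per the methods the controls sat in the chamber with room air for 3 h and were killed 24 h later, so that chamber handling shortly before death cannot be told apart from hypoxia at H1, H3 and R1. The time of day of sampling is not given in the sources used here. The labels do not say that arrays with the same replicate number came from the same mouse. It was taken so here, and a numbered mouse below means the 7 arrays of 1 time and number. The p-values measure the spread between these 3 samples a group.

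Potassium channels let K+ leave or enter the cell and so set the resting potential and end the action potential. Voltage-gated alpha subunits open on depolarisation, silent modifiers form no channel of their own but join those alpha subunits, and accessory subunits tune gating and trafficking. Calcium- or sodium-activated channels follow internal ions, inward rectifiers hold cells near rest and answer G proteins or ATP, and two-pore channels carry background current. Brain regions are known to differ in the mix of these subunits, which gives their neurons different firing patterns, and K+ channels that answer to energy supply are known to be active when oxygen is short.

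Each array had a trimmed mean intensity near 125, and between 23.3% and 30.2% of its values lay below 16. Levels are therefore given as intensity, and differences as log2(intensity + 16), a scale that understates the change of dim genes. A level was never set against that of another gene, because probe sets differ in how they bind. The region labels held up against marker genes. All 4 striatal, 6 thalamic, 5 midbrain, 5 pons and medulla and 6 cerebellar markers were highest in their own region, as were 3 of 4 cortical and 3 of 5 hippocampal markers. For most members the intensity was well above the floor, but Kcnn3, Kcne3, Kcne1, Kcnj1, Kcnj5, Kcnj2, Kcns1, Kcnk7 and Kcnk5 lay below 16 on most arrays.

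At 0hr the potassium channel genes differed widely between brain regions. Of the 84 genes, 63 differed among the 7 regions (limma's moderated F-test, adjusted p under 0.05 over 45037 probe sets), against 41.4% of all probe sets and 48.7% of genes at 1 probe set each. The median distance between a member's highest and lowest region was 1.29 on the log2 scale, where it was 0.533 over all probe sets and 0.55 over all genes. For 54 members the distance was above 1 and for 26 above 2, shares that were 17.1% and 3.79% over all probe sets. In whole-tissue RNA, fewer cells of a type and less RNA per cell cannot be told apart.

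**Figure D1:**
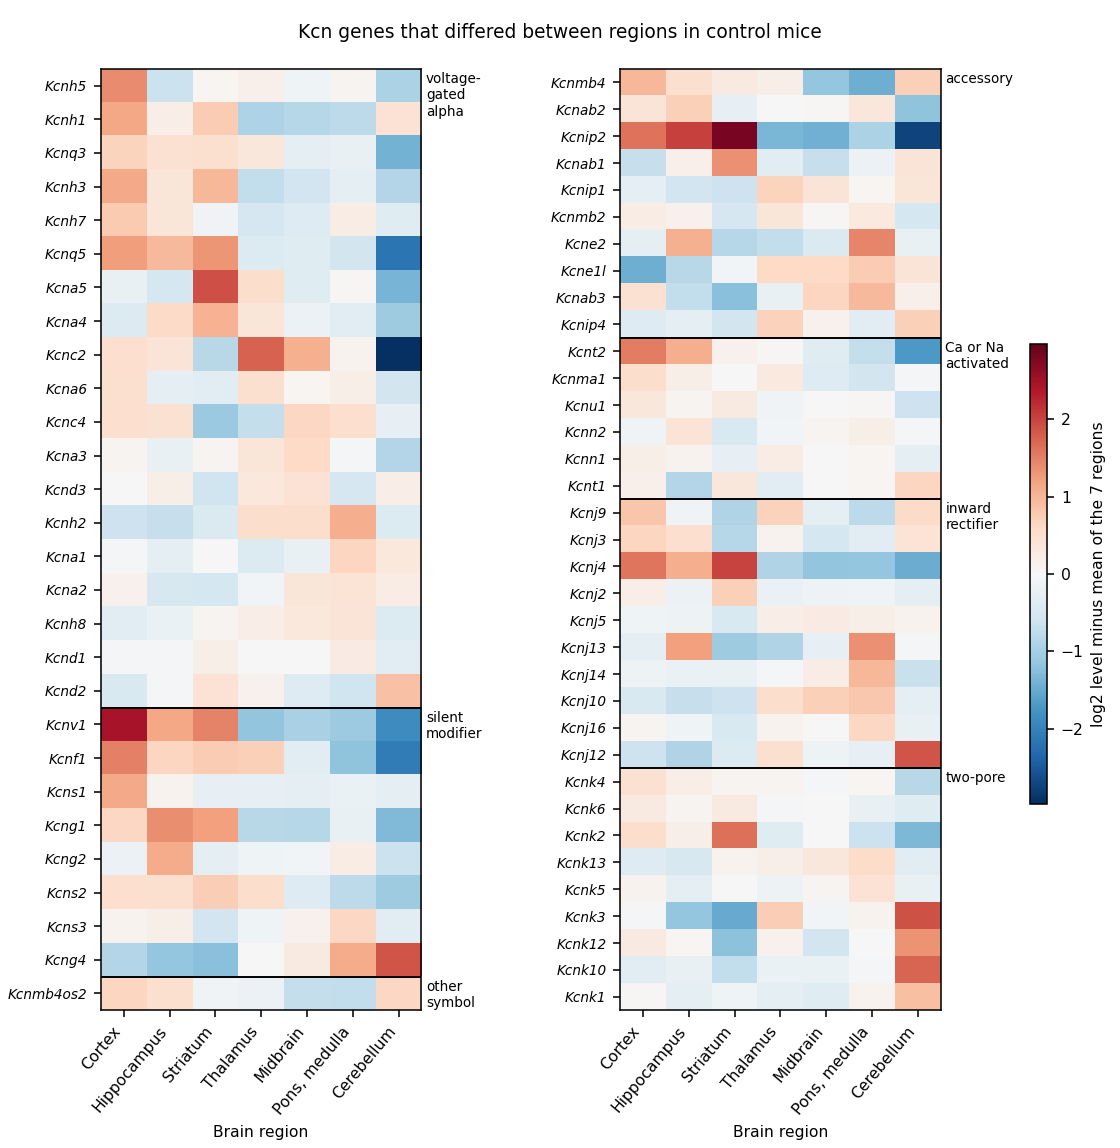
Mean control level of the 63 members that differed among regions, drawn as a heat map with genes in rows by role, the 7 brain regions in columns, and colour for the log2(intensity + 16) level minus that gene's mean over the regions (3 arrays a region). The cerebellum column holds the deepest lows, with Kcnip2 and Kcnc2 the farthest below their own means, and the highs of different genes fall in different columns.

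Among the 22 voltage-gated alpha subunits, 19 differed among regions, with a median distance of 1.46. Kcnc2, a subunit of fast delayed rectifiers known from fast-spiking neurons, had the widest distance of them at 4.73. Its intensity was 1136, 992 and 1137 on the thalamic control arrays, 679, 629.9 and 656 in midbrain and 449, 484 and 405.5 in cortex. In cerebellum it was 19.6, 30.2 and 27.6, so that no cerebellar array came near any other. Against the mean of the other 6 regions Kcnc2 was 2.06 ± 0.12 (SE) higher in thalamus (limma, adjusted p = 1.68e-09) on the log2 scale, and in cerebellum it differed by -3.46 ± 0.12 (adjusted p = 1.63e-13). Thalamus exceeded midbrain, the next region, by 0.72 (adjusted p = 0.0118). Its relative Kcnc1, which also serves fast firing, did not pass the test, with a distance of 0.64 (adjusted p = 0.265) and single arrays from 437 in striatum to 843 in cerebellum. This null holds for the chosen probe set only. Among the other Kcnc1 probe sets, 1 of nearly the same brightness (mean intensity 623) had a distance of 2.61 (adjusted p = 1.32e-10) and another (233) had 1.59 (adjusted p = 4.21e-07), both highest in cerebellum, and the dimmest did not pass (0.68, adjusted p = 0.555).

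Kcna5, a delayed rectifier subunit, was highest in striatum, at 256, 252 and 224. It was 89.4, 67.8 and 95.1 in thalamus and 8.38, 2.38 and 25.0 in cerebellum. The striatal arrays stood clear of all others, 2.24 ± 0.16 above the other 6 regions (adjusted p = 1.06e-08) and 1.39 above thalamus (adjusted p = 0.000122). Kcna1 and Kcna2 are axonal subunits that limit repetitive firing. Kcna1 reached 1867, 1939 and 2151 in pons and medulla, 0.75 ± 0.11 above the others (adjusted p = 8.12e-05), although it did not differ from cerebellum, the next region, by the test (0.33, adjusted p = 0.111). Kcna2 was likewise highest there, but its lead over midbrain was only 0.05 (adjusted p = 0.929).

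Kcnd2 carries the somatodendritic A-type current. It was highest in cerebellum, at 1714, 1563 and 1620, then in striatum at 1316, 1067 and 1214, a step of 0.44 (adjusted p = 0.00142), and lowest in pons and medulla at 613, 526 and 629. Kcnh2, the ether-a-go-go related subunit best known from heart, was highest in pons and medulla at 386, 387 and 448, 1.26 ± 0.09 above the other regions (adjusted p = 1.24e-08) and 0.56 above midbrain (adjusted p = 0.0139). A pair of its relatives peaked in cortex instead. Kcnh5 read 76.0, 91.0 and 54.7 there and no more than 30.4 on any other array, a difference of 1.64 ± 0.15 (adjusted p = 2.22e-07). Kcnh1 read 750, 732 and 728 in cortex and was 0.40 above striatum (adjusted p = 0.0251). Kcnq3, a subunit of the muscarine-sensitive M current, stepped down from cortex (921, 838 and 867) to cerebellum (199.8, 199.5 and 199.7), with a distance of 2.05, while its top regions did not separate (cortex over striatum 0.19, adjusted p = 0.25).

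All but 1 of the 9 silent modifiers differed among regions, and their median distance of 1.79 was the largest of the roles. Kcnv1 was highest in cortex, at 520.4, 536 and 466, and intermediate in striatum (232, 297 and 219.5) and hippocampus (228, 182 and 181). In thalamus, midbrain, pons and medulla and cerebellum no array passed 39.7. Cortex was 2.86 ± 0.20 above the other 6 (adjusted p = 8.1e-09) and 0.99 above striatum (adjusted p = 0.0164). Kcnf1 was also cortical, at 221, 370.1 and 236 against 11.0, 6.32 and 6.49 in cerebellum, and 1.75 ± 0.14 above the other regions (adjusted p = 5.89e-08). Kcng2 led in hippocampus with 131, 96.0 and 141, above every other array and 1.27 ± 0.17 above the other regions (adjusted p = 3.41e-05). Kcng4 ran the other way and was highest in cerebellum, at 480.3, 465 and 512, where striatum had 41.2, 38.6 and 46.8. The difference from the other regions was 2.19 ± 0.11 (adjusted p = 2.1e-11). In cortex 5 of the 9 silent modifiers were higher than in the mean of the other regions and 1 lower. In cerebellum 1 was higher and 6 lower. Among all genes at 1 probe set each, 10% were higher and 13.8% lower in cortex, and 16.1% and 18.4% in cerebellum.

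**Figure D2:**
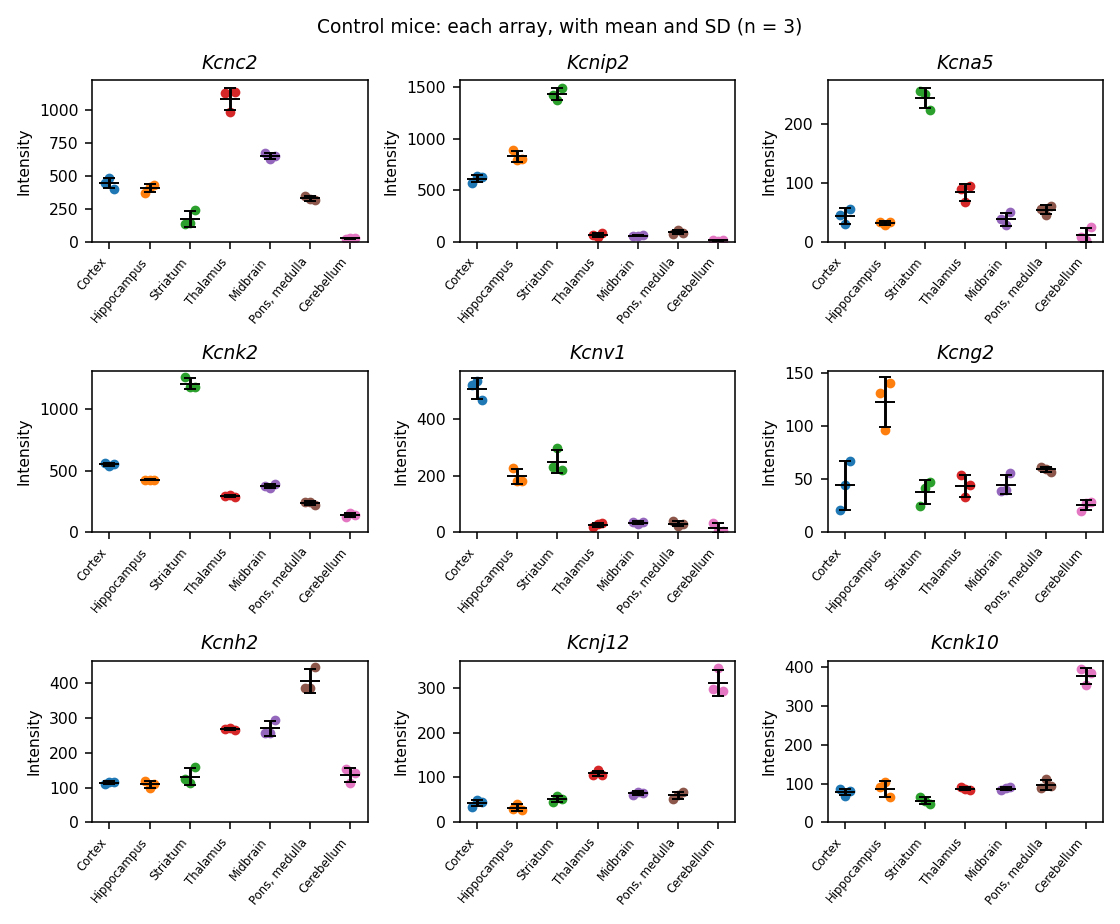
Control intensity of 9 members (Kcnc2, Kcnip2, Kcna5, Kcnk2, Kcnv1, Kcng2, Kcnh2, Kcnj12 and Kcnk10) in the 7 brain regions, 1 panel a gene on a linear axis from 0, with points for single arrays and bars for the mean ± SD of 3 arrays. In each panel 1 region stands above the rest: thalamus for Kcnc2 (992 to 1137), striatum for Kcnip2, Kcna5 and Kcnk2, cortex for Kcnv1, hippocampus for Kcng2, pons and medulla for Kcnh2, and cerebellum for Kcnj12 and Kcnk10.

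Of the 15 accessory subunits, 10 differed among regions, and they held the widest distance of any member. Kcnip2, which binds the A-type alpha subunits and brings them to the surface, read 1425, 1372 and 1490 in striatum, 888, 793 and 804 in hippocampus and 572, 641 and 625 in cortex. Thalamus, midbrain and pons and medulla had 44.8 to 114, and cerebellum 14.5, 9.59 and 21.5. The distance was 5.55, with striatum 3.28 ± 0.13 above (adjusted p = 2.41e-12) and cerebellum at -3.20 ± 0.13 (adjusted p = 1.13e-12) relative to the other regions, and striatum 0.78 above hippocampus (adjusted p = 0.00386). The other members of this calcium-binding family had a different order. Kcnip1 and Kcnip4 were lowest in striatum and highest in thalamus and cerebellum respectively, with no separation of the top regions (adjusted p = 0.696 and 0.932). Kcnip3 did not pass the F-test (adjusted p = 0.0549).

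The 3 beta subunits of the voltage-gated channels were each highest in another region. Kcnab1 was striatal (1841, 1579 and 1768), 1.58 ± 0.070 above the other 6 (adjusted p = 1.62e-11). Kcnab2 led in hippocampus (1368, 1299 and 1333; 0.83 ± 0.070, adjusted p = 1.09e-07) and was lowest in cerebellum (320.1, 327 and 386). Kcnab3 was highest in pons and medulla (149.7, 182 and 165; 1.11 ± 0.16, adjusted p = 5.13e-05), but its lead over midbrain did not pass (0.32, adjusted p = 0.6). Kcnmb4, the neuronal beta subunit of the large-conductance calcium-activated channel, read 745, 788 and 804.5 in cortex and 704, 608 and 623 in cerebellum, but 132, 129 and 131 in pons and medulla. There it differed from the other regions by -1.70 ± 0.07 on the log2 scale (adjusted p = 2.79e-11). Kcnmb4os2, named as a transcript opposite Kcnmb4, ran through the regions in the same order from cortex to pons and medulla, at 54.2, 55.3 and 52.2 in cortex and 16.1, 6.64 and 11.4 in pons and medulla. Whether its probes bind only the opposite strand was not tested.

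Kcnma1, the pore of that large-conductance channel, was also highest in cortex (855, 779 and 906) and lowest in pons and medulla (422.5, 378 and 377), with a distance of 1.08 and no test-passing step between cortex and thalamus (0.24, adjusted p = 0.309). In all, 6 of the 8 calcium- or sodium-activated channels differed among regions. The sodium-activated pair were highest in different regions. Kcnt2 was highest in cortex (181, 179 and 178), where it stood 1.78 ± 0.080 above the others (adjusted p = 4.72e-11), and was near 5 on all cerebellar arrays (5.02, 4.72 and 5.21). Kcnt1 was highest in cerebellum, which did not separate from striatum (0.28, adjusted p = 0.263). It was lowest in hippocampus (123, 122 and 125), a difference of -1.02 ± 0.13 (adjusted p = 1.59e-05). Its other probe sets were also highest in cerebellum, with distances of 2.196 and 2.175 (adjusted p of the F-test = 2.81e-09 and 5.32e-10). Among the small-conductance channels that shape the afterhyperpolarisation, Kcnn2 read 238, 236 and 248 in hippocampus (0.48 ± 0.083 above the others, adjusted p = 0.000443) and 128, 128.5 and 120.3 in striatum (-0.52 ± 0.083, adjusted p = 0.000147). Kcnn1 had a distance of 0.51 and was highest in thalamus, and Kcnn3 did not pass the test on this dim probe set (adjusted p = 0.178).

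Of the 15 inward rectifiers, 10 differed among regions, with a median distance of 1.08. Kcnj12, a strong rectifier, was a cerebellar gene on these arrays at 296, 344 and 293, where thalamus, the next region, had 105, 116 and 105. It was 2.17 ± 0.088 above the other regions (adjusted p = 1.67e-12) and 1.39 above thalamus (adjusted p = 4.36e-08). Kcnj4, another strong rectifier, was highest in striatum (434.5, 313 and 299.7) and next in cortex, from which it did not separate (0.43, adjusted p = 0.233), and it had 6.18, 17.1 and 29.0 in cerebellum. Kcnj14 led in pons and medulla (56.8, 66.2 and 72.8), 1.14 ± 0.099 above the others (adjusted p = 1.91e-07). Kcnj10, the K+ buffering channel of astrocytes and oligodendrocytes, read 775, 788 and 726 in pons and medulla. In hippocampus it read 259, 253 and 279. Its 9 arrays from cortex, hippocampus and striatum all lay below the 12 arrays from the other regions.

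The G-protein-gated subunits answer inhibitory transmitters such as GABA and adenosine. Kcnj3 was low in striatum (105.5, 114 and 128), a difference of -0.998 ± 0.065 (adjusted p = 2.45e-09), and highest in cortex (374, 354 and 342). Kcnj9 was lowest in striatum as well (50.9, 61.1 and 67.3) and highest in cortex (232, 249 and 215) and thalamus (233, 204 and 196), with a distance of 1.72 (adjusted p of the F-test = 7.62e-09). Kcnj6 did not pass on its chosen probe set (distance 0.45, adjusted p = 0.258), while 3 of its 4 other, dimmer probe sets did (distances of 0.94, 0.31 and 0.72, adjusted p = 0.000226, 0.0226 and 0.0492, at mean intensities of 8.31, 3.13 and 31.0). Kcnj11, the pore of neuronal ATP-sensitive channels, had a distance of 0.25 (adjusted p = 0.232), with 381, 401 and 399.7 in thalamus and 433, 526 and 460.3 in pons and medulla. Its other, dimmer probe set (mean intensity 45.9) had a distance of 0.82 (adjusted p = 0.0387) and was highest in cerebellum. The vascular pore Kcnj8 did not pass either (distance 0.62, adjusted p = 0.142).

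Of the 12 two-pore channels, 9 differed among regions. Kcnk2, a background channel opened by stretch and lipids, was highest in striatum (1259, 1183 and 1178), then in cortex (563.5, 535 and 557), and lowest in cerebellum (126, 153 and 142). Striatum was 1.91 ± 0.060 above the other regions (adjusted p = 1.81e-13) and 1.11 above cortex (adjusted p = 2.49e-08). Its close relative Kcnk10 was instead highest in cerebellum, at 395, 354 and 384.5, and had no array above 112 in any other region (2.03 ± 0.097, adjusted p = 1.54e-11; 1.80 above pons and medulla, adjusted p = 6.53e-09). Kcnk3, an acid-sensitive background channel, also led in cerebellum (314, 321 and 285), 2.21 ± 0.26 above the others (adjusted p = 2.89e-06), with a wide spread in midbrain (91.5, 125 and 20.9). Kcnk1 was cerebellar too (1519, 1951 and 1899), 0.78 above pons and medulla (adjusted p = 1.07e-05). Kcnk4 differed among regions (adjusted p = 0.00701), but its top regions did not separate (cortex over hippocampus 0.24, adjusted p = 0.683).

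Seen by region, the cerebellum stood apart most often, and more by lows than by highs. Against the mean of the other 6 regions, 18 members were higher and 31 lower in cerebellum, where 16.2% and 14% of all probe sets were called. Among all genes at 1 probe set each, the cerebellar shares were 16.1% and 18.4%, the largest of the 7 regions for both. Genes in general thus also had more lows than highs there. The members' shares were 21.4% and 36.9%. In cortex 27 were higher and 12 lower (8.18% and 10% of all), in hippocampus 22 and 14 (6.63% and 7.16%), and in striatum 20 and 24 (9.47% and 10.8%). Pons and medulla had 17 higher and 20 lower (9.84% and 9.28%), thalamus 15 and 11 (5.14% and 4.29%) and midbrain 10 and 18 (6.8% and 5.52%). At 1 probe set a gene the share among all genes was 10.2% for highs in midbrain and 13.8% for lows in cortex, so that the 10 and 12 members called there were near the background. These counts moved by over 1.5 times without replicate 1 (7 lower in cortex, 9 lower in hippocampus), replicate 2 (7 lower in cortex, 9 higher in thalamus, 5 higher in midbrain) or replicate 3 (6 higher in midbrain). All 3 cerebellar arrays lay below all 18 others for 16 members (4.39% of all probe sets), 12 of the 22 voltage-gated alpha subunits being lower there by the test and 5 higher. All 3 cortical arrays lay above all others for 9 members (1.53% of all probe sets), and for 0 members did all 3 midbrain arrays (0.377%).

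A block of genes high in cortex, hippocampus and striatum crossed the roles. For 7 members all 9 control arrays of cortex, hippocampus and striatum lay above all 12 of the other regions, a pattern found in 1.8% of all probe sets. These were Kcnip2, Kcnv1, Kcnj4, Kcnq5, Kcng1, Kcnh3 and Kcnk2, with mean differences from 3.77 for Kcnip2 to 1.36 for Kcnk2. Kcnq5, an M-current subunit, had 262 to 368 in those 3 regions and 14.2 to 114.5 elsewhere. Kcnh3, an ether-a-go-go-like subunit, had 449 to 951 against 182 to 323.5. The reverse held for 2 members (1.59% of all probe sets), Kcng4 and Kcnj10. This division of the regions, and with it the naming of Kcnq5, Kcng1 and Kcnh3, was chosen after the values were seen.

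Other probe sets of the same genes gave a check that the choice of probe set had not used. Of 83 further probe sets, 42 lay above the median of all probe sets in mean level, and 33 of these had their highest region in common with the gene's first probe set. Of the genes known as partners of these channels or as handlers of K+, 21 were analysed, and 15 differed among regions, with a median distance of 0.878. Examples were Lgi1, a secreted protein of the Kcna1 complex, with a distance of 1.70 and its peak in hippocampus, and Dpp10, a partner of the A-type channels, with 1.53 and its peak in cortex. Abcc9, the regulatory subunit that pairs with Kcnj8 in vessels, did not pass (0.27, adjusted p = 0.571).

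Kcnj13 and Kcne2, channel subunits of the choroid plexus epithelium, varied widely between arrays of 1 region. Kcnj13 read 101, 351 and 499 in hippocampus, 41.2, 191 and 76.3 in midbrain and 388, 222 and 293 in pons and medulla. Kcne2 read 23.1, 110.3 and 146.5 in hippocampus and 154, 66.6 and 113 in pons and medulla. The choroid plexus marker Ttr, which encodes transthyretin, went from 2933 to 4664 in hippocampus, from 4513 to 5107 in pons and medulla, and from 68.5 to 4050 in midbrain. The summed intensity of the 6 choroid plexus markers spanned 3310 to 5724, 4907 to 5911 and 428 to 4540 in these regions. Over the 24 arrays of a region, which share dissection and scaling, Pearson's r with Ttr on the log2 scale was 0.633 to 0.909 for Kcnj13 and 0.621 to 0.894 for Kcne2. Spearman's rho was 0.3 to 0.948 and 0.239 to 0.928, in both genes lowest in hippocampus. Both passed the F-test over regions (adjusted p = 0.00175 and 0.00247), and the part of choroid plexus carried along in dissection in that result was not tested.

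**Figure D3:**
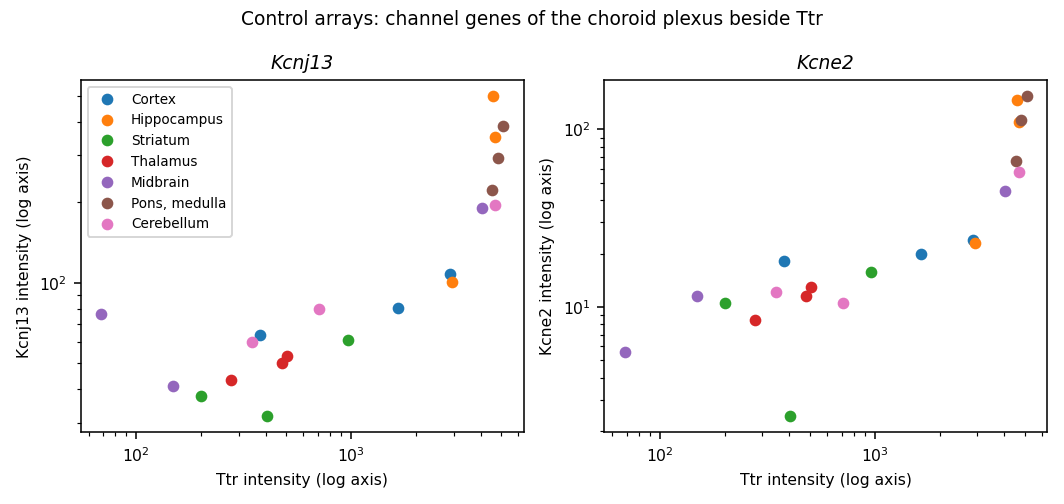
Control intensity of Kcnj13 and of Kcne2 (vertical, log axis) against that of the choroid plexus marker Ttr (horizontal, log axis), 1 point for each of the 21 control arrays, coloured by brain region. The arrays of hippocampus and of pons and medulla, where Ttr is 2933 or more, hold the 5 highest values of Kcnj13 and of Kcne2, and the midbrain array with Ttr at 4050 has the highest Kcnj13 of its region (191).

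The next comparison asked which of these genes changed during hypoxia and reoxygenation. Within single regions few did: over the 49 comparisons of 1 region at 1 time with its own controls, no member rose and 5 calls were made for falls. These falls were of Kcnj9 and Kcnk10 alone. Of all probe sets, 1.13% rose and 1.79% fell in at least 1 of these comparisons. Counted as genes, the members that rose or fell were thus near the background. Between 1 and 11 members a comparison (1.19% to 13.1%) had an unadjusted p under 0.05, where 3.91% to 11.6% of all probe sets had. A replicate block in the fit changed the counts of rises and falls, as given at the end. All 5 falls lay at H3 or R1, and 4 of them were of Kcnj9, the G-protein-gated subunit. Cortex at R1, hippocampus at R1 and cerebellum at H3 held 1 each and cerebellum at R1 held 2, where falls were called for 0.244%, 0.226%, 0.533% and 0.591% of all probe sets.

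In cerebellum, Kcnj9 read 188, 207 and 180 in the controls, 134.5, 131 and 125 at H3, and 112, 138 and 134.5 at R1. Every H3 and R1 array lay below every control. The change was -0.51 ± 0.097 on the log2 scale at H3 (adjusted p = 0.0126) and -0.53 at R1 (adjusted p = 0.00968). By R3 the mean was back at 192, a change of 0.0035. The H3 call ended without control replicate 2 (adjusted p = 0.0798) or H3 replicate 2 or 3 (0.0532 and 0.0656), and the R1 call without control replicate 2 (0.0644) or R1 replicate 1 (0.0572). In hippocampus the controls had 122, 121 and 102 and the R1 arrays 80.9, 62.2 and 75.8 (-0.56 ± 0.11, adjusted p = 0.0343). In cortex the controls had 232, 249 and 215 and the R1 arrays 149.8, 171 and 156 (-0.50 ± 0.11, adjusted p = 0.0498). The cortical call ended without any 1 of its 6 arrays (adjusted p = 0.0583 to 0.199), and also with a pseudocount of 1 (0.0732), quantile normalisation (0.0729), median centring (0.286) or the mean of the gene's probe sets (-0.26, 0.445). The hippocampal call ended without control replicate 1 or 2 or R1 replicate 2 or 3 (0.105 to 0.175) or with the mean of the probe sets (-0.43, 0.277), which also ended the H3 call in cerebellum (-0.40, 0.0963). The arrays of H3 and R1 lay below all controls in thalamus as well, where the change at R1 was -0.47 but did not pass (adjusted p = 0.158). In pons and medulla, midbrain and striatum the R1 changes were -0.27, -0.16 and -0.06 (adjusted p = 0.656, 0.871 and 0.962). A test with limma of whether the R1 change of Kcnj9 differed between regions did not pass (adjusted p = 0.655).

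**Figure D4:**
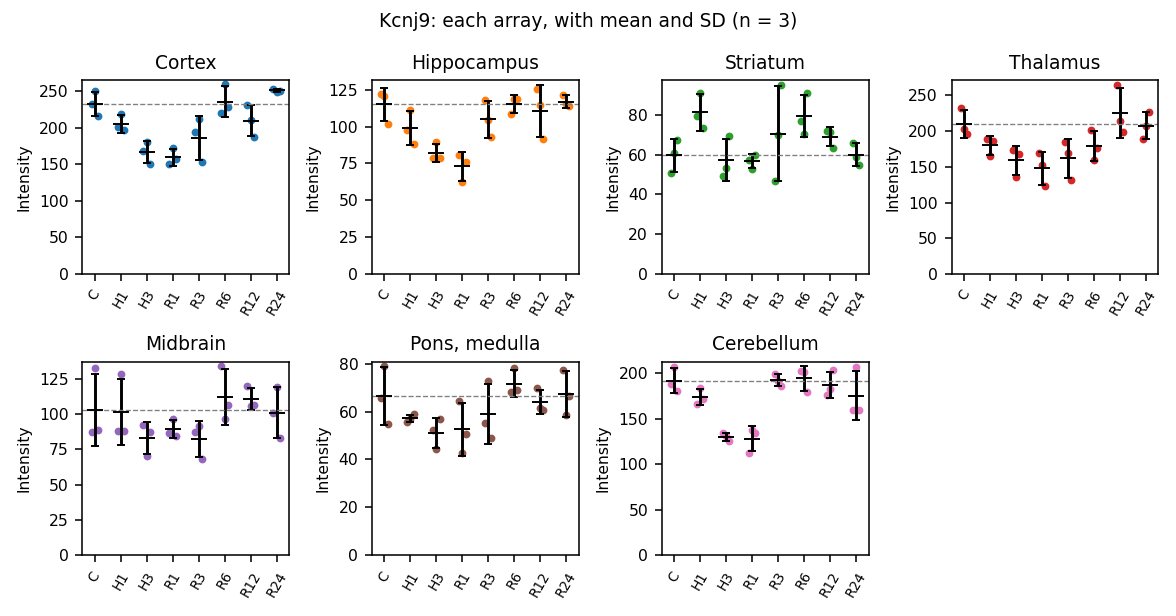
Intensity of Kcnj9 over the 8 groups (C, H1, H3, R1, R3, R6, R12 and R24) in 7 panels, 1 a brain region, with points for single arrays, the mean ± SD of 3 arrays as a bar and the control mean as a dashed line. In cerebellum the arrays at H3 (125 to 134.5) and R1 (112 to 138) lie below all control arrays (180 to 207), while in striatum the R1 arrays scatter around the dashed line.

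As the mean over the 7 regions of a mouse, Kcnj9 stood at 7.12, 7.25 and 7.04 on the log2 scale in the 3 control mice. It was 6.83, 6.75 and 6.84 at H3 and 6.82, 6.76 and 6.75 at R1, so that the groups did not overlap. The changes were -0.33 ± 0.060 at H3 (adjusted p = 0.00221) and -0.36 at R1 (adjusted p = 0.000752), with -0.07 at H1 (adjusted p = 0.871), -0.15 at R3 (adjusted p = 0.34) and 0.05 at R6. Both calls held without any 1 of the mice compared, but with a replicate number left out of all groups the H3 call ended without number 1 or 2 (adjusted p = 0.0715 and 0.153) and the R1 call without number 2 (0.0707). Kcnj9 had 3 further probe sets. The second changed by -0.36 at H3 and -0.41 at R1 (adjusted p = 0.00857 and 0.00211), the third by -0.31 and -0.37 (adjusted p = 0.0642 and 0.0149), and the dimmest by -0.04 and -0.23 (adjusted p = 0.955 and 0.344). The subunits that Kcnj9 joins were not called at R1 in any region: Kcnj3 changed by -0.14 to 0.05 and Kcnj6 by -0.31 to 0.16. Whether they differed from Kcnj9 was not tested.

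The fifth fall within a region was that of Kcnk10 in cerebellum, the region where this two-pore channel was highest. Its control arrays had 395, 354 and 384.5 and its R1 arrays 262.5, 277 and 297 (-0.42 ± 0.096, adjusted p = 0.0373), with no overlap. The R1 arrays also lay below all controls in cortex, thalamus and midbrain (-0.32, -0.35 and -0.22, adjusted p = 0.452, 0.101 and 0.582). The cerebellar call ended without any 1 of its 6 arrays (adjusted p = 0.0675 to 0.146), with a pseudocount of 1 (0.0557), quantile normalisation (0.0571), median centring (0.0601) or the mean of its probe sets (-0.22, 0.458). As the mean over regions the control mice had 6.93, 6.91 and 6.82 and the R1 mice 6.51, 6.59 and 6.72, a change of -0.28 ± 0.070 (adjusted p = 0.0214), a call that ended without control mouse 1 or 2 or R1 mouse 1 or 2 (0.0777 to 0.11) or with median centring (0.0507) or the mean of its probe sets (-0.19, 0.134). Its other, dimmer probe set changed by -0.09 (adjusted p = 0.692).

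Taking the mean over the 7 regions of each mouse brought out 8 members in all, with 1 rise at H1, 2 rises and 1 fall at H3, and 2 rises and 4 falls at R1. Over all probe sets, 0.0977% rose and 0.06% fell at H1, 1.2% and 2.16% at H3, and 1.65% and 3.83% at R1, so that the members' counts at H3 and R1 were near the background. The median change of the 84 members was 0.021 at H1, 0.018 at H3 and 0.0049 at R1, where that of all probe sets was 0.0066, -0.0056 and -0.017. From R3 to R24 limma called 0 members, while 10, 4, 4 and 3 had an unadjusted p under 0.05 at R3, R6, R12 and R24. The share of all probe sets at that unadjusted p was not counted here, so these numbers have no background beside them. Over all probe sets 0.355% rose and 0.426% fell at R3, 0.0266% and 0.0155% at R6, and 0 later. With a replicate block in the fit, members were called at R3, as given at the end.

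Kcne4, an accessory subunit that quiets several voltage-gated channels, was the member that rose at H1. The control mice had 5.86, 5.75 and 5.44 on the log2 scale, the H1 mice 6.43, 6.28 and 6.15 and the H3 mice 6.30, 6.16 and 5.98, with no overlap between C and either group. The rise was 0.61 ± 0.11 at H1 (adjusted p = 0.016) and 0.47 at H3 (adjusted p = 0.0159), and the change was 0.34 at R1 (adjusted p = 0.0734). At H1 all 7 regions were above their controls in mean, by 0.30 to 1.10, and at H3 the changes went from -0.41 in pons and medulla to 1.22 in cortex. In cortex the intensity was 12.7, 28.4 and 24.0 in the controls and 87.3, 62.1 and 64.0 at H3. These values are dim, and no single region passed the test (adjusted p = 0.269 for cortex at H3). The H1 call ended without control mouse 3 or H1 mouse 1 or 2 (adjusted p = 0.0728 to 0.0835), and the H3 call without control mouse 3 or H3 mouse 1 or 2 (0.059 to 0.0888).

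Kcnk6, a two-pore channel, rose at H3. The mouse means were 6.44, 6.32 and 6.32 in the controls and 6.67, 6.69 and 6.71 at H3, a rise of 0.33 ± 0.063 (adjusted p = 0.00402). The H3 arrays lay above all controls in 6 of the 7 regions, by means of 0.23 in midbrain to 0.46 in cortex and in pons and medulla. Cerebellum was the exception at 0.09 (adjusted p = 0.866). The call for the mean over regions held without any 1 of the mice compared, but ended with replicate number 2 or 3 left out of all groups (adjusted p = 0.138 and 0.0925). In striatum, Kcnk6 also differed over its 8 groups (F-test, adjusted p = 0.00823), with 82.98 in the controls and 115 at H3 in mean.

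At R1 both Kcnj8 and Kcnk2 rose. Kcnj8, the pore of the ATP-sensitive channel of pericytes and smooth muscle, went from 6.03, 5.96 and 5.88 in the control mice to 6.37, 6.47 and 6.33 (0.44 ± 0.10, adjusted p = 0.014), after 0.31 at H3 (adjusted p = 0.114). Its R1 change was positive in every region, from 0.27 in cortex to 0.67 in striatum, though none passed alone. The call ended without control mouse 2 (adjusted p = 0.051) or R1 mouse 2 (0.0698). Its partner Abcc9 changed by -0.05 (adjusted p = 0.74). Of the 6 pericyte and smooth muscle markers, 0 were called at H1, H3 or R1 in any region. Their median change at R1 lay between -0.15 and 0.137 by region. Kcnj8 was not called in any region either, so the lack of calls does not show whether the markers changed in the mean over regions. The rise of Kcnk2, the striatal two-pore channel, was the smallest of the called changes. The control mice had 8.62, 8.62 and 8.61 and the R1 mice 8.79, 8.75 and 8.79, a rise of 0.16 ± 0.041 (adjusted p = 0.0244), with regional changes from 0.01 in midbrain to 0.27 in cerebellum. It was lost without any 1 of the 6 mice (adjusted p = 0.0513 to 0.0831).

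Beside Kcnj9 and Kcnk10, Kcnv1 and Kcnj2 fell at R1. Kcnv1, the cortical silent modifier, went from 6.75, 6.51 and 6.47 to 6.25, 6.33 and 6.12 (-0.34 ± 0.081, adjusted p = 0.014). Its mean intensity at C and R1 was 508 and 357 in cortex and 249 and 166 in striatum (changes of -0.49 and -0.53, adjusted p = 0.133 and 0.21), and in thalamus the change was 0.25. Its 2 other probe sets changed by -0.14 and -0.07 (adjusted p = 0.493 and 0.609), and the call ended without control mouse 1 or R1 mouse 3 (0.0837 and 0.0832) or with a pseudocount of 1 (0.101) or the mean of its probe sets (-0.18, 0.0973). Kcnj2, a strong inward rectifier, went from 4.52, 4.52 and 4.65 to 4.28, 4.24 and 4.34 (-0.28 ± 0.067, adjusted p = 0.0165), but 89.9% of its arrays lay below 16, and the call ended without control mouse 3 or R1 mouse 1 or 2 (adjusted p = 0.0663, 0.0536 and 0.08) or with median centring (0.0553).

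**Figure D5:**
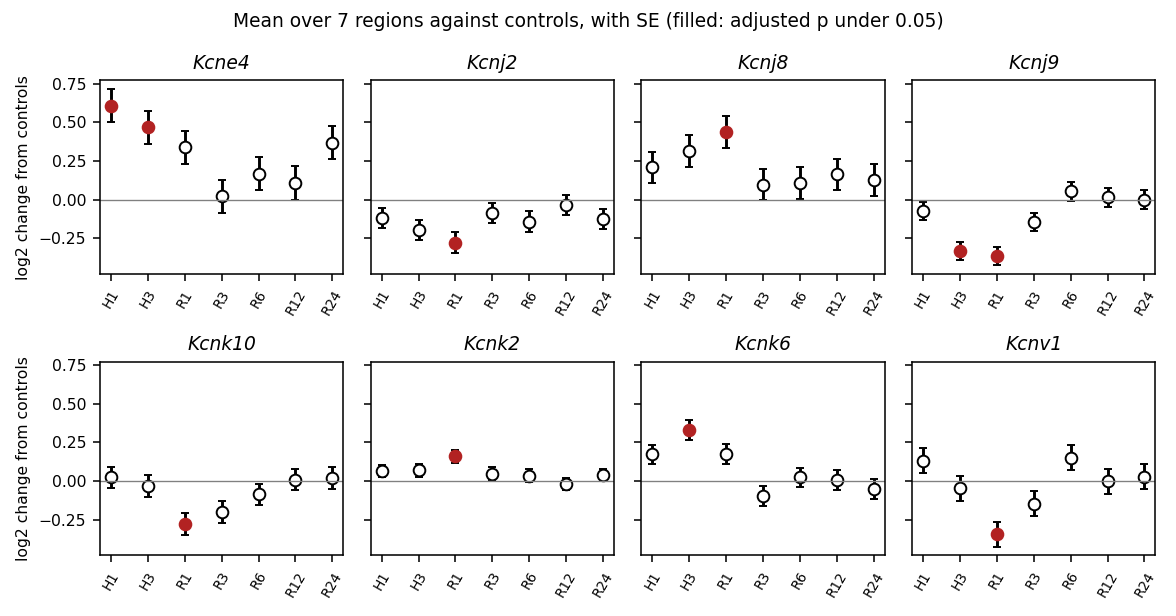
Log2 change from C of the mean over 7 regions for the 8 members called at any time (Kcne4, Kcnj2, Kcnj8, Kcnj9, Kcnk10, Kcnk2, Kcnk6 and Kcnv1), 1 panel a gene, over H1 to R24, with bars for the SE (3 mice a group) and filled red points where the adjusted p was under 0.05. Filled points lie at H1 to R1 alone, with Kcne4 highest at 0.61 and Kcnj9 lowest at -0.36.

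No member was called for a difference between regions in its change, which was tested at H3 and R1 only. The test of that difference called 0 members at H3 and at R1, and it called 0.0222% and 0.135% of all probe sets. An unadjusted p under 0.05 was found for 3 and 7 members, and the share of all probe sets at that p was not counted. Among members the smallest p belonged to Kcnd3 at H3 (limma, adjusted p = 0.958), another A-type subunit, with changes from -0.19 in cortex to 0.21 in cerebellum, and to Kcnh5 at R1 (adjusted p = 0.459), from -0.59 in thalamus to 0.30 in midbrain. Kcnd2 differed over the 8 groups in cerebellum (F-test, adjusted p = 0.0138), where its mean went from 1632 in the controls to 1313 at R3, a change of -0.31 that did not pass alone (adjusted p = 0.264). Among the 21 partner and K+ handling genes 0 were called at any time, with median changes of -0.0032 at H1, 0.036 at H3 and 0.029 at R1. Of the marker lists of endothelium, choroid plexus, meninges, astrocytes, microglia, neurons and blood, 0 genes were called at H1, H3 or R1, and 1 of 5 oligodendrocyte markers was called higher in cortex at H3 and R1.

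The reference sequence upstream of 4 of the 8 changed genes is shown because ACGTG is a form of the core that hypoxia-inducible factors bind. The search was made after the values were seen. It covered ACGTG alone, here called the core, and no other form. Each sequence is the 250 bases before the annotated start in RefSeq GRCm38.p6, 5′ to 3′ on the gene's strand, with capitals where the core lies on either strand. The windows are chr1:78816661-78816910 (plus strand) for Kcne4, chr11:111065914-111066163 (plus) for Kcnj2, chr1:172329323-172329572 (minus) for Kcnj9 and chr6:142571615-142571864 (minus) for Kcnj8.
Kcne4: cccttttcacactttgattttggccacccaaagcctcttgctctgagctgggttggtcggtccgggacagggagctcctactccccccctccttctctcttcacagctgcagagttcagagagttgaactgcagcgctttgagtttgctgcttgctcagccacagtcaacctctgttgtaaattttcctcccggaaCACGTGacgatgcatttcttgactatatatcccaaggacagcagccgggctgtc
Kcnj2: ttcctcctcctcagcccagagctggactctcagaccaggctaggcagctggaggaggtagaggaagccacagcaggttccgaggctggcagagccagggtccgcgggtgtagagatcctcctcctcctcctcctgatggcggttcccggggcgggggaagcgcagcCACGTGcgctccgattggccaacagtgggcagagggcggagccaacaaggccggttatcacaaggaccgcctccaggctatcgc
Kcnj9: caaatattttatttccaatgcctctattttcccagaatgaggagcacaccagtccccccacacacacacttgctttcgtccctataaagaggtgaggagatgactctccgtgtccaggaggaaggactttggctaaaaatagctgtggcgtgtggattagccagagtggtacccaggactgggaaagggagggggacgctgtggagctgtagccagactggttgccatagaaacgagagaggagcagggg
Kcnj8: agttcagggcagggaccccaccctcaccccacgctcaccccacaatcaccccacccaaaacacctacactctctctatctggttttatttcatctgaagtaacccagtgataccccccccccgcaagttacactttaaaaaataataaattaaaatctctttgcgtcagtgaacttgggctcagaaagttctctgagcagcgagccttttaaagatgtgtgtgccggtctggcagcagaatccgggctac
Kcne4, which rose, and Kcnj2, which fell, each held the letters CACGTG, which are 2 overlapping matches of the core, 1 on each strand. The windows of Kcnj9, which fell, and Kcnj8, which rose, held no ACGTG on either strand. The 2 windows of Kcnk10 and the 4 of Kcnk2 held none either. The set of windows searched held none for Kcnk6 or Kcnv1. Over all 32851 windows of this length 16.6% held the core, and 13 of the 89 windows of member genes did, or 14.6%. The 89 windows belonged to 64 of the 84 members, and the remaining members had no window in the set. These counts describe letters in the windows only.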

How the data were processed

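Expression was measured on Affymetrix Mouse 430 2.0 arrays, 3 for each of 7 brain regions at 8 times, with groups and replicate numbers taken from the sample titles. The authors deposited a single matrix of intensity values on a linear scale, and the submitters' processing notes name GCOS 1.3. Every array had a trimmed mean near 125 (2% taken off each end), as global scaling gives. The methods describe a GCRMA summary, quantile normalisation and division by the sham mean, steps that these values do not show. The deposited values were used with no further scaling. The 64 control probe sets were left out, and 45037 probe sets were tested, of which 34945 named 1 gene, 932 several and 9160 none. The number of arrays limits the precision.

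Differences were tested on log2(intensity + 16) with limma 3.58.1 in R 4.3.3, with Benjamini-Hochberg adjustment over all 45037 probe sets and a threshold of 0.05 on the adjusted p. Regions were compared over the 21 control arrays with the replicate number as a random block (consensus correlation 0.0398). Each region was compared with the mean of the other 6, and its highest with its next region. Times were compared with C within a region (24 arrays, 8 group means) and over 24 means of 7 regions. The difference of a change between regions was tested over all arrays. The matrix was read with version 1.17.8 of data.table, and the code was tested on simulated data. Medians and counts over the members were set beside those over all probe sets, with no test of the list.

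The members, the gene lists and the tests were chosen with earlier results of these data known. Genes named in the text were, for each region, up to 4 members above and 2 below the other regions with all 3 arrays beyond all 18 others; every member called over time; the member with the smallest p for a difference between regions; the 3 least varied members above a mean of 100; and a list of well-known channels. Alternatives were other pseudocounts (1 and 32), quantile normalisation, median centring, a filter on dim probe sets, the mean of a gene's probe sets, leaving out each replicate, the replicate block, and the methods' one-way analysis.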

Additional observations from a re-analysis of the deposited data

How the results depend on the processing

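The 26 named differences of a region from the other 6 kept their direction and their call in each of 10 alternatives, or of 9 for Kcnh5 and Kcnj14, which the filter on dim probe sets left out. The number of members that differed among regions was 63, also with no replicate block, and lay between 54 and 59 with 1 replicate number left out. With 1 replicate number left out, the 12 members lower in cortex became 7 to 10, the 14 lower in hippocampus 9 to 12, the 15 higher in thalamus 9 to 11 and the 10 higher in midbrain 5 to 7.

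For the changes over time, each of the 5 single-region calls was lost when any replicate number was left out of all groups, which gave 0 falls each time, and the methods' one-way analysis and t-test gave 0 falls and 0 rises after adjustment, and 10 falls and 3 rises at their threshold. Falls numbered 3 with a pseudocount of 1, with quantile normalisation and with median centring, and 2 with the mean of a gene's probe sets. In the mean over regions, leaving out a replicate number gave 0 rises at H1 each time, 0 to 1 rises and 0 to 2 falls at H3, and 0 to 1 rises and 0 to 3 falls at R1. Each call in the mean over regions was lost without at least 1 replicate number. Rises at R1 numbered 4 with median centring, where falls numbered 2, and 4 with the filter on dim probe sets. At R3 there was 1 rise with a pseudocount of 32, and 1 rise and 2 falls with the filter. Leaving out single mouse means was added after the data were seen. No setting reversed a result, and fewer arrays or probe sets in a fit change its power as well as its values. Dim values and 3 arrays a group limit detection.

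Same-numbered arrays were not paired by the labels. Arrays of 1 time and number in different regions had a median correlation of 0.039 of their deviations (78 of 504 over 0.1), and arrays of 1 region and number at different times 0.0813 (217 of 588), against -0.038 for different numbers. Since not every correlation passed 0.1 the pairing rule was not met. Even so, 157 arrays within a region and 141 within a time were closest to their own number, so that arrays of 1 number were alike. Per the methods the mice differ between times, yet the median correlation was higher there (0.0813) than between regions at 1 time (0.039). Whether the number marks a mouse or a processing batch was not tested. The main fits over time had no term for the number, and calls changed when it was added. With the replicate block as a fixed term, single regions gave 1 rise and 7 falls, and the mean over regions gave 4 rises at R1 and 1 rise and 2 falls at R3. With all arrays and a random replicate block the mean over regions gave 2 rises and 1 fall at H1 and 1 rise and 4 falls at R3.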
